A study of Mus musculus with 14 samples.

Results

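Axon guidance ligands and receptors are 71 of the 24444 genes listed for these mouse cortices, and their rule matches gene symbols. The set holds every semaphorin of classes 3 to 7, plexin, neuropilin, Slit, Robo, netrin, netrin-G, Dcc, Unc5, ephrin and Eph receptor gene whose symbol was in both deposited tables. Of these genes 37 encode ligands and 34 encode receptors. The rule uses no measured value, but the set was proposed with earlier results of these data known.

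Guidance cues are proteins that a growing axon meets on its way and that attract or repel its tip. Secreted semaphorins bind neuropilins and signal through plexins, membrane-bound semaphorins bind plexins directly, Slits repel axons through Robo receptors, and netrins attract through Dcc or repel through Unc5 receptors. Ephrins are tethered to the cell surface and bind Eph receptor tyrosine kinases on the neighbouring cell, and both sides of the contact can signal. In the cortex after birth these genes are also known for roles in dendritic spines, synapse number and the maintenance of connections.

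Polyadenylated RNA of whole mouse cortex was sequenced in 14 libraries, and 2 genotype contrasts were deposited as separate tables. In the first, 3 miR29Nestin mice were compared with 3 miR29WT mice at postnatal day 40 (P40). The miR29Nestin mice carried floxed alleles of both miR-29 clusters, miR-29ab1 and miR-29b2c, crossed to Nestin-Cre, a recombinase line driven in neural progenitors. Neurons and glia that arise from these progenitors are therefore the cells expected to lose miR-29. In the second, 4 Dnmt3a-mi5 mice were compared with 4 Dnmt3a-WT mice at 4.5 months of age. Dnmt3a-mi5 is a CRISPR/Cas9 knock-in in the gene of the DNA methyltransferase Dnmt3a, whose 3′ UTR has 5 miR-29 binding sites changed, and it leaves miR-29 itself in place. Whether the miR29WT mice carried Cre or floxed alleles, and the zygosity of the knock-in, are not given in the sources used here.

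A microRNA pairs through its seed, from the second to the eighth base, with matching letters in the 3′ UTR of a messenger RNA, which lowers that messenger. The mature miR-29 sequences, from RefSeq (GRCm38.p6), share 1 seed, shown in capitals.
miR-29a-3p: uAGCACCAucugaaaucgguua
miR-29b-3p: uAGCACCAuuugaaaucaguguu
miR-29c-3p: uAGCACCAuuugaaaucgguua
The letters that pair with this seed, TGGTGCT, were searched on the transcribed strand in the longest annotated 3′ UTR of each gene (GENCODE M21, GRCm38). They stood in 11 of the 71 guidance genes (15.5%), against 16.6% of all tested genes. The windows below belong to the 4 genes that both held the letters and passed the test in miR29Nestin cortex, and the matching letters are in capitals.
Efna2, chr10:80188892-80188898, plus strand: gcttctctttcaTGGTGCTgtc
Efna5, chr17:62606463-62606469, minus strand: tacagttcaccaTGGTGCTaca
Ephb1, chr9:102040516-102040522, minus strand: caagaacagcaaTGGTGCTttc
Epha10, chr4:124916242-124916248, plus strand: ctagcaggcaagTGGTGCTgag
Epha10, chr4:124916357-124916363, plus strand: cacacacagtccTGGTGCTtgc
Epha10, chr4:124916735-124916741, plus strand: tttgaaggagtaTGGTGCTaag
The letters matched in Efna5 and the last of the Epha10 matches continue to TGGTGCTA, a longer match. Sema3a, Robo1, Ephb3, Epha8, Epha1, Epha2 and Epha3 also held TGGTGCT, and the matches of Sema3a and Robo1 continue to TGGTGCTA as well. Neither Sema3a nor Robo1 was called in miR29Nestin cortex. Ephb1 spans chr9:101922128-102354693 on the minus strand, so its match lies far inside the gene and not near the gene's 3′ end. Whether the main Ephb1 transcript of cortex holds that match was not examined. A match is a description of the sequence only.

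Both tables hold log2 values, from which normalised counts were recovered, and levels below are given on that count scale. A gene was tested where its mean was at least 1 log2 unit above the lowest value of its table. A gene was called higher or lower at a Benjamini-Hochberg adjusted p under 0.05 over all tested genes, by limma. The labels name the samples as replicates of a genotype, and the p-values measure the spread between these samples.

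The miR-29 hairpin genes were listed at 0 in all 6 and all 8 libraries, so polyadenylated RNA did not check the deletion. Dnmt3a itself ran from 5275 to 5859 in miR29Nestin and from 1605 to 1724 in miR29WT, and from 1948 to 2249 in Dnmt3a-mi5 and from 1062 to 1234 in Dnmt3a-WT. Recovered depth was 9.20 to 14.4 M reads a library in the miR29 table and is unknown for the Dnmt3a table. The cortical label was met by Slc17a7 and the other excitatory markers, all 10 of which were tested in both tables. Their summed level was lower in miR29Nestin (64010 to 67840) than in miR29WT (72790 to 83610), with 5 of 10 genes called lower. Summed astrocyte markers were higher (16210 to 16530 against 14370 to 15090), with 4 of 8 genes called higher and 1 lower, as were those of oligodendrocyte precursors (6463 to 6809 against 4896 to 5350), with 3 of 6 called higher. Summed leptomeningeal markers were higher too (1806 to 2339 against 866 to 1452), with 5 of 8 tested genes called higher. Over all tested genes of this contrast 10.0% were called lower and 9.02% were called higher. The groups overlapped in the sums of the other 9 lists, none of the 13 lists had a marker at 0 in every library, and the part of these shifts in the results below was not tested.

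In miR29Nestin cortex, the guidance set moved down far more often than up. Of the 67 guidance genes tested, 24 were lower in miR29Nestin (35.8%) and 3 were higher (4.48%), while 10.0% of all 12014 tested genes were called lower and 9.02% were called higher. Together that is 27 guidance genes called, where 19.1% of all tested genes were called and 33.0% had an unadjusted p under 0.05. The median difference of the 67 genes was -0.16 on the log2 scale, against -0.01 over all tested genes. The receptors carried most of the decrease, with 16 of 31 tested called lower and 0 called higher (17 receptors at an unadjusted p under 0.05, 16 of them lower), while 8 of 36 tested ligands were called lower and 3 were higher. The 3 that rose were the ligands Efna2, Efna5 and Slit1. In bulk tissue, fewer cells of a type and less RNA per cell cannot be told apart.

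The 4 genes not tested were Efna4, Epha1, Epha2 and Epha3, whose means lay under the filter. For 33 of the 67 tested genes every miR29Nestin library was below every miR29WT library, and for 5 every library was above. Over all tested genes these shares were 18.7% and 18.6%. The count of called guidance genes was 16 without miR29WT replicate 3 (3 higher and 13 lower), against 27 with all libraries.

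**Figure D1:**
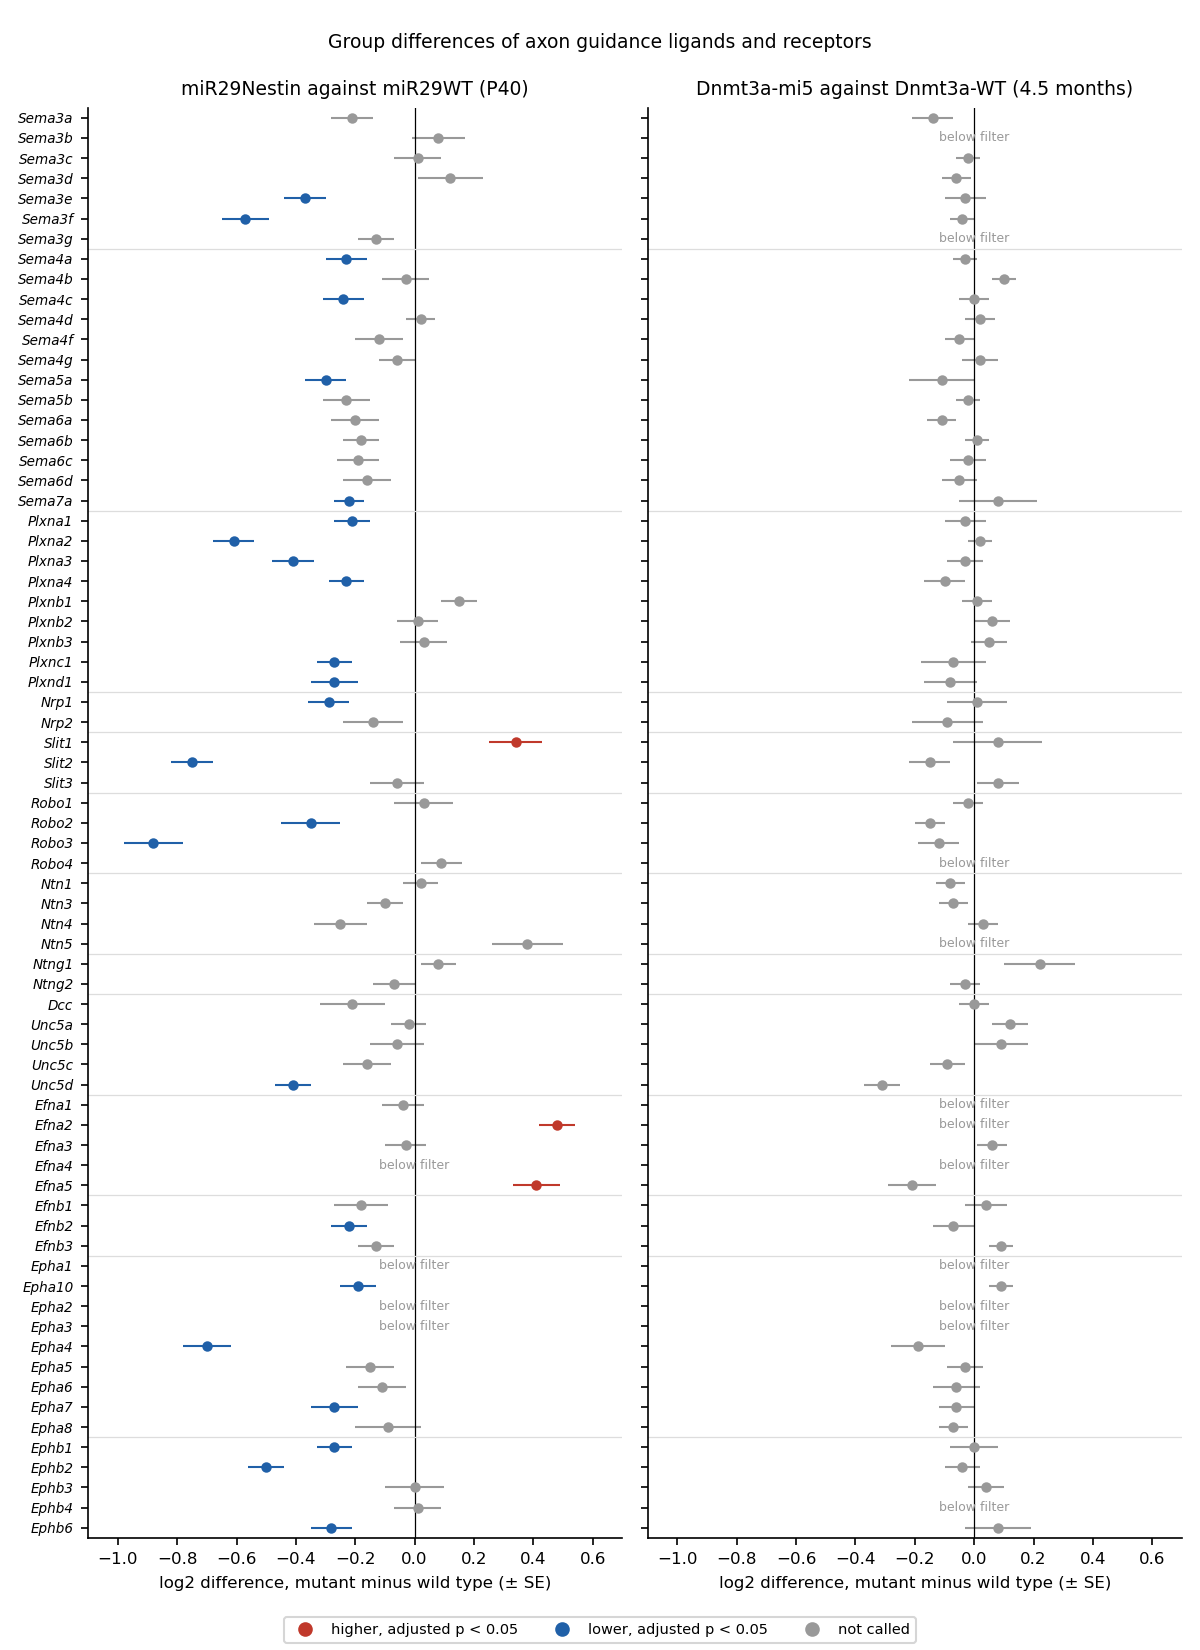
Log2 difference, mutant minus wild type, of each tested guidance gene, with its standard error, ordered by family, for the miR29 table (3 against 3 libraries) and the Dnmt3a table (4 against 4). Called were 24 genes lower and 3 higher in miR29Nestin, and 0 in Dnmt3a-mi5.

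Slits and Robos held the strongest changes. Slit2, a secreted repellent that keeps axons from crossing the midline again (chr5:47983138-48307733, plus strand), was at 253, 215 and 278 in miR29Nestin and at 501, 513 and 558 in miR29WT. No mutant library came near a wild-type library, and the mean was 2.11-fold lower (249 ± 32.1 against 524 ± 30.3, SD, n = 3). The log2 difference was -0.75 (SE 0.07, limma adjusted p = 7.94e-05). An exact 2-sided permutation test over the libraries gave p = 0.1 for Slit2, the smallest value that the 20 assignments of 3 against 3 allow, and the same for Plxna2 and Robo3.

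Robo3, a divergent Robo known for letting commissural axons cross the midline (chr9:37415669-37433246, minus strand), stood at 274, 212 and 177 in miR29Nestin and at 588, 458 and 558 in miR29WT. Its mean was 2.42-fold lower, the largest drop by this measure among the tested guidance genes that were called (log2 difference -0.88, SE 0.10, limma adjusted p = 2.20e-04). Robo2, a Slit receptor with the highest level per transcript length of the Robos (128 normalised counts per kb in miR29WT), was at 677, 901 and 911 against 965, 1174 and 1162. The groups did not overlap, but the call was lost without miR29Nestin replicate 1, miR29WT replicate 2 or miR29WT replicate 3 (limma adjusted p = 0.0305 with all libraries, and 0.0616, 0.121 and 0.103 without them).

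Slit1, a Slit expressed mainly in the nervous system, moved the other way from Slit2. Its levels were 498, 613 and 516 in miR29Nestin and 320, 430 and 430 in miR29WT, a 1.38-fold higher mean (log2 difference 0.34, SE 0.09, limma adjusted p = 0.0239). The call was lost without miR29Nestin replicate 2 or miR29WT replicate 1 (adjusted p = 0.102 and 0.0656 in limma). Slit1 had the highest level per kb of the Slits, 69.4 in miR29WT. Slit3 (adjusted p = 0.72), Robo1 (0.853) and the endothelial receptor Robo4 (0.413) were not called by limma.

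**Figure D2:**
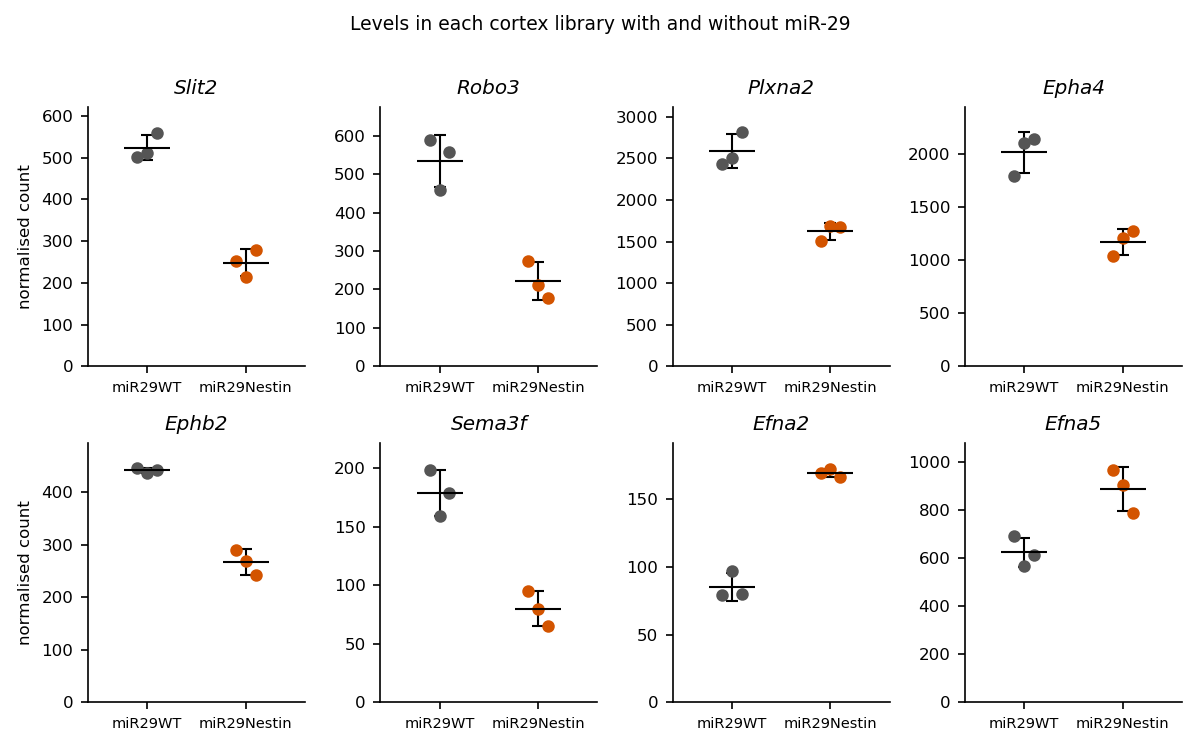
Normalised count per library of 8 guidance genes in miR29Nestin (n = 3) and miR29WT (n = 3), with bars for the mean and SD. Slit2, Robo3, Plxna2, Epha4, Ephb2 and Sema3f lie lower in every miR29Nestin library, and Efna2 and Efna5 lie higher in every one.

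Of the semaphorin ligands, 6 of 20 tested fell and 0 rose (limma, 11 of the 20 at an unadjusted p under 0.05, all lower). Sema3f, a secreted repellent that acts through Nrp2 and is known for pruning spines, was at 95.1, 80.2 and 65.1 in miR29Nestin and at 199, 159 and 179 in miR29WT. All mutant libraries were lower, by 2.23-fold on the means (log2 difference -0.57, SE 0.08, limma adjusted p = 6.58e-04). Its deposited log2 scale understates folds at such low counts.

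Sema3e, which binds Plxnd1 without a neuropilin, was at 182, 203 and 220 against 324, 291 and 297 in miR29WT. The mean was 1.51-fold lower and the groups did not overlap (log2 difference -0.37, SE 0.07, limma adjusted p = 0.00318). Sema7a, a lipid-anchored semaphorin that binds Plxnc1 and integrins, had the highest level per transcript length of all guidance genes, 687 normalised counts per kb in miR29WT. It fell little but evenly, from 2227, 2238 and 2328 in miR29WT to 1960, 1952 and 1854 (1.18-fold, limma adjusted p = 0.0108). The call was lost without miR29WT replicate 3 (adjusted p = 0.0543 in limma).

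Sema5a, a transmembrane semaphorin with thrombospondin repeats, was at 530, 615 and 489 in miR29Nestin and at 709, 751 and 660 in miR29WT. The groups were apart (limma adjusted p = 0.0169), but the call was lost without miR29WT replicate 2 (adjusted p = 0.0789 in limma). Sema4c and Sema4a were called with drops of 1.34-fold and 1.22-fold on the means. Sema4c did not pass without replicate 2 or 3 of miR29Nestin or replicate 1 or 3 of miR29WT (limma adjusted p from 0.0686 to 0.101), and Sema4a passed only where miR29Nestin replicate 3 was the library left out (otherwise 0.0509 to 0.144). Sema6b missed the threshold at a limma adjusted p of 0.052 and passed it at 0.0195 with the replicate block, as did Sema5b at 0.0412 and Sema6c at 0.0411. With a sex term added to the block none of these 3 passed. Sema3a, the best known neuropilin ligand, was lower in every mutant library without passing (213, 216 and 270 against 306, 297 and 276, limma adjusted p = 0.0642).

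Plexins, the signalling receptors for semaphorins, fell most widely: 6 of 9 were called lower and 0 higher (limma, 7 at an unadjusted p under 0.05, 1 of them higher). Plxna2 (chr1:194618218-194816869, plus strand) was at 1506, 1685 and 1678 in miR29Nestin and at 2434, 2502 and 2821 in miR29WT. The groups were far apart, with a 1.59-fold lower mean (log2 difference -0.61, SE 0.07, limma adjusted p = 1.51e-04). It also had the highest level per kb of the plexins and neuropilins in miR29WT, 234.

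Plxna3, which pairs with Nrp2 for Sema3f signals, was at 269, 250 and 256 against 351, 418 and 415 (1.53-fold lower, limma adjusted p = 0.00194). Plxnc1, the plexin bound by Sema7a, was at 395, 424 and 436 against 511, 528 and 570 (1.28-fold lower, limma adjusted p = 0.0114). Both receptors were lower in every mutant library than in any wild-type library. The Plxnc1 call was lost without miR29WT replicate 3 (adjusted p = 0.0591 in limma).

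Plxna4, a receptor for Sema3a and Sema6a, was at 1516, 1652 and 1572 against 1855, 1797 and 2003 (limma adjusted p = 0.0165, and 0.0782 without miR29WT replicate 3). Plxnd1, the receptor of Sema3e, was at 1389, 1108 and 1304 against 1582, 1456 and 1655 (limma adjusted p = 0.0291). The Plxnd1 call was lost without miR29Nestin replicate 2, miR29WT replicate 1 or miR29WT replicate 3, with adjusted p of 0.106, 0.0706 and 0.108 in limma. Plxna1 was called at an adjusted p of 0.0432 in limma and was lost without any library but miR29WT replicate 1 (0.0645 to 0.158). None of the B plexins Plxnb1, Plxnb2 and Plxnb3 was called (limma adjusted p from 0.13 to 0.915).

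Nrp1, the co-receptor of Sema3a and also of VEGF, was at 182, 197 and 216 in miR29Nestin and at 248, 285 and 288 in miR29WT. It was 1.38-fold lower with no overlap (limma adjusted p = 0.0141), but did not pass without miR29Nestin replicate 2, miR29WT replicate 2 or miR29WT replicate 3 (adjusted p = 0.0506, 0.06 and 0.0621 in limma). Nrp2 overlapped between the groups (172, 215 and 165 against 164, 251 and 241, limma adjusted p = 0.361).

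Netrins and netrin-G proteins gave 0 calls among 6 tested genes in limma, and 2 of the 6 were at an unadjusted p under 0.05. Ntn5 was higher in every mutant library (135, 91.5 and 99.5 against 83.2, 66.3 and 28.9) with a limma adjusted p of 0.0508, and it passed at 0.0081 with the replicate block and at 0.0209 without miR29WT replicate 1. It also passed in limma with no filter (0.0457) and with libraries centred on the median (0.0487). Ntn4, a laminin-binding netrin, was lower in every mutant library (63.3, 40.1 and 81.5 against 99.9, 88.2 and 91.5) with a limma adjusted p of 0.0725. It passed with the block (0.0362), with the block and a sex term (0.0116) and without miR29Nestin replicate 3 (0.0203). Ntng2, a lipid-anchored netrin relative that binds the synaptic protein Lrrc4, had the highest level per kb of these families (182) and overlapped between the groups: 369, 329 and 301 against 332, 386 and 350 (limma adjusted p = 0.55).

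Among the netrin receptors 1 of 5 was called. Unc5d, a repulsive netrin receptor that also binds Flrt proteins (chr8:28646717-29219636, minus strand), was at 358, 366 and 404 in miR29Nestin and at 579, 518 and 563 in miR29WT. Every mutant library was lower, by 1.47-fold on the means (log2 difference -0.41, SE 0.06, limma adjusted p = 0.00127). Unc5a, with the highest level per kb of this family (370), did not separate the groups: 1505, 1457 and 1388 against 1358, 1505 and 1575 (limma adjusted p = 0.827). Dcc, the attractive netrin receptor, spread widely in the mutants (147, 207 and 280) and lay at 271, 247 and 271 in the wild type (limma adjusted p = 0.217). Dcc passed without miR29Nestin replicate 3 (adjusted p = 0.0192 in limma), as did Unc5c (0.0396).

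The ephrin-A ligands were the only family of these 13 in which the called genes all rose, 2 of 4 tested (limma, both calls at an unadjusted p under 0.05). Efna2, a lipid-anchored ligand of EphA receptors (chr10:80179482-80190010, plus strand), was at 169, 172 and 167 in miR29Nestin and at 79.1, 97.3 and 79.9 in miR29WT. The mutant libraries lay close together and all above the wild type, at a 1.98-fold higher mean (169 ± 2.84 against 85.4 ± 10.3, SD, n = 3). The log2 difference was 0.48 (SE 0.06, limma adjusted p = 5.53e-04).

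Efna5, an ephrin-A known for graded expression that orders topographic maps (chr17:62604184-62881317, minus strand), was at 966, 904 and 787 in miR29Nestin and at 690, 568 and 612 in miR29WT. Its mean was 1.42-fold higher with no overlap (log2 difference 0.41, SE 0.08, limma adjusted p = 0.00444). Efna3, with the highest level per kb of the ephrin-A genes in miR29WT (159, against 155 for Efna5), overlapped between the groups: 381, 372 and 344 against 342, 414 and 374 (limma adjusted p = 0.812). Efna1 was not called either (limma adjusted p = 0.76).

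The ephrin-B ligands span the membrane and signal backwards into their own cell. Efnb2 was called lower (591, 699 and 669 against 773, 813 and 773, limma adjusted p = 0.0333), and it did not pass without miR29Nestin replicate 1 or any of the 3 miR29WT libraries, at adjusted p from 0.0631 to 0.12 in limma. Efnb3, the ephrin-B with the highest level per kb (414), overlapped between the groups: 1318, 1139 and 1102 against 1344, 1329 and 1275 (limma adjusted p = 0.177). Without miR29Nestin replicate 1 its adjusted p was 0.0273 in limma.

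The receptors of these ligands fell, 3 of 6 tested EphA and 3 of 5 tested EphB genes, and 0 rose (limma, 6 of the 11 at an unadjusted p under 0.05, all lower). Epha4, which binds both ephrin classes and is known for guiding corticospinal axons (chr1:77367185-77515088, minus strand), was at 1035, 1211 and 1273 in miR29Nestin and at 1797, 2105 and 2140 in miR29WT. Every mutant library was far below the wild type, at a 1.72-fold lower mean (log2 difference -0.70, SE 0.08, limma adjusted p = 2.24e-04). It was also the EphA receptor with the highest level per kb in miR29WT, 318.

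Ephb2, a receptor that clusters NMDA receptors at synapses, was at 290, 268 and 242 in miR29Nestin and at 446, 436 and 441 in miR29WT. The wild-type libraries differed little and all lay above the mutants, 1.65-fold on the means (log2 difference -0.50, SE 0.06, limma adjusted p = 3.80e-04). Ephb1, known from uncrossed retinal axons, was at 543, 554 and 493 against 714, 685 and 631 (1.28-fold lower, limma adjusted p = 0.0116). Ephb6, whose kinase is inactive, had the highest level per kb of the EphB receptors (564) and was at 1830, 1787 and 1513 against 2232, 1947 and 2183. Its groups did not overlap (limma adjusted p = 0.0214), but the call was lost without miR29WT replicate 1 or replicate 3 (adjusted p = 0.0695 and 0.0768 in limma).

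Epha7 and Epha10 were called with smaller drops, of 1.26-fold and 1.18-fold on the means, and both depended on single libraries. Epha7 did not pass without miR29Nestin replicate 1, miR29WT replicate 1 or miR29WT replicate 2 (limma adjusted p = 0.081, 0.101 and 0.0622). Epha10 passed only where miR29Nestin replicate 1 was the library left out (otherwise 0.0559 to 0.137), and its adjusted p in limma was 0.0574 with a sex term. Epha3 lay under the filter, at 11.2, 17.0 and 26.3 in miR29Nestin and at 35.1, 32.4 and 39.1 in miR29WT, and was called in the fit with no filter (log2 difference -0.25, limma adjusted p = 0.0478). Across the 13 families, the summed level of the members was lower in every mutant library than in any wild-type library for 9 families. It was higher for the ephrin-A family, at 1342 to 1572 against 1121 to 1154. The sums of the Slits, netrins and netrin-G genes overlapped. The neuropilin sums were barely apart, at 353.5 to 411.1 in miR29Nestin against 411.6 to 535.8 in miR29WT. A sum follows its most abundant members, and the neuropilins, the ephrin-B family and the Dcc and Unc5 family each had only 1 gene called lower. No share for sums of other gene families was computed.

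**Figure D3:**
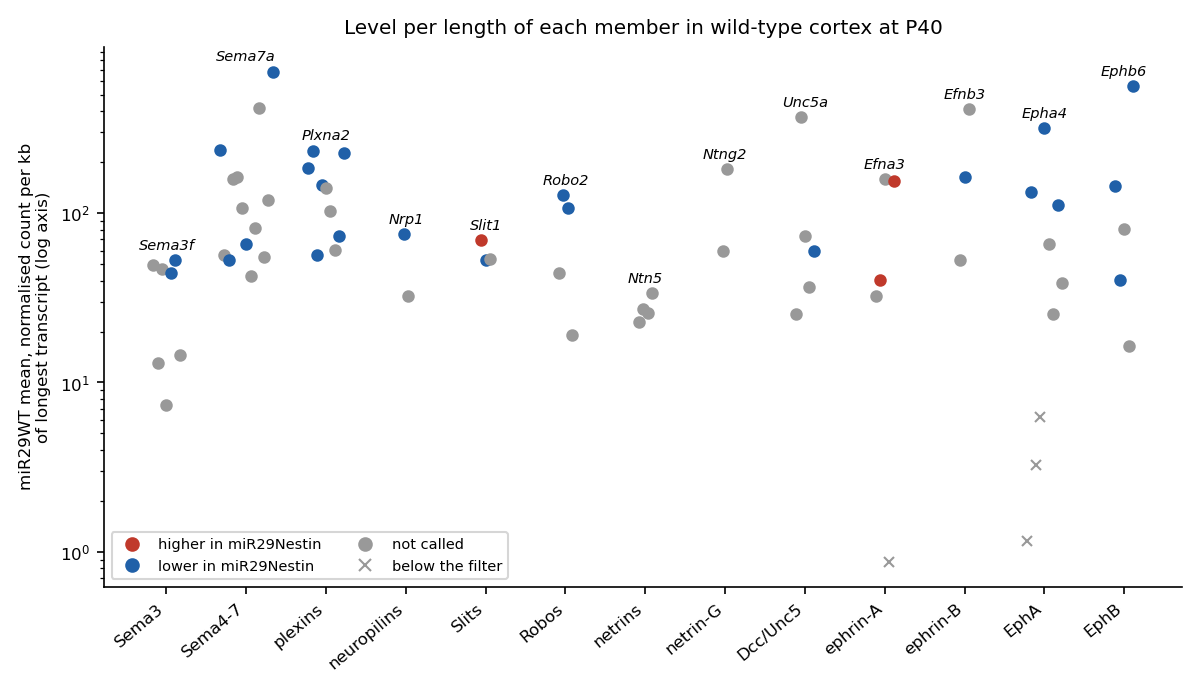
Mean normalised count per kb of longest transcript in miR29WT (n = 3, log axis) of the 71 guidance genes by family, coloured by their call in miR29Nestin, with crosses for genes below the filter. Sema7a was highest at 687, and the lowest were the genes below the filter.

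Ligands and receptors that bind each other did not move as 1 block. Sema3f fell with Plxna3, Sema3e with Plxnd1 and Sema7a with Plxnc1, all called with every library in the fit. The calls of Plxnd1, Sema7a and Plxnc1 were lost without miR29WT replicate 3. Nrp2, through which Sema3f acts, was not called (limma adjusted p = 0.361). The pairs given here were named after the calls were seen. Slit2 and Slit1 moved in opposite directions while their receptor Robo2 fell, and Efna2 and Efna5 rose while their receptors Epha4 and Epha7 fell.

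Guidance genes are long, and those called, in either direction, were longer at the median than those not called. The median gene length was 146 kb for the 24 guidance genes called lower, 143 kb for the 3 called higher and 48.1 kb for the 40 not called, against 26.8 kb over all tested genes with a length. Their levels differed too: the median normalised count per kb in miR29WT was 120 for those called lower, 69.4 for those called higher and 53.5 for those not called. Over all tested genes it was 120, and the part of level in the calls was not tested. Genes over 100 kb made up 46.5% of the 71 guidance genes and 16.4% of all tested genes. Of all tested genes over 100 kb 19.7% were lower and 7.78% higher, against 8.15% and 9.27% of shorter ones. Of the 32 guidance genes over 100 kb 13 were lower (40.6%) and 2 higher, and of the 35 shorter ones 11 were lower (31.4%), among them Robo3 and Sema3f, and 1 was higher. Within either length class the share of guidance genes called lower was above that of all genes, with no test of the difference.

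The called genes were also counted by the miR-29 letters. Of the 8 tested guidance genes with TGGTGCT, 2 were higher (Efna2 and Efna5), 2 were lower (Ephb1 and Epha10) and 4 were not called (Sema3a, Robo1, Ephb3 and Epha8). Of the 59 tested genes without the letters 1 was higher (Slit1) and 22 were lower. Over all tested genes, 17.3% of those with the letters were higher and 8.58% were lower, against 7.37% and 10.5% of those without. Of the 24 guidance genes that fell, 22 did not hold these letters in the 3′ UTR searched. Most genes lack them: the letters stood in 8.33% of these 24, in 10% of the 40 guidance genes not called and in 16.6% of all tested genes. The difference between these shares was not tested.

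**Figure D4:**
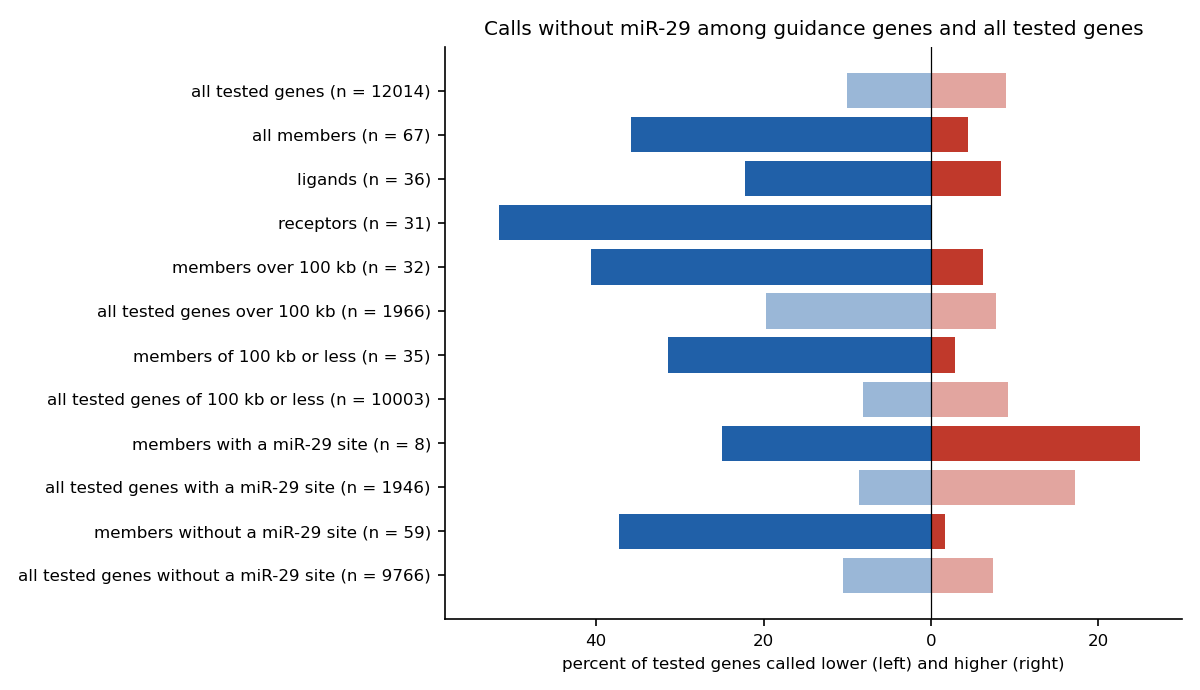
Percent of tested genes called lower and higher in miR29Nestin, for the guidance genes (members, dark bars), also as ligands and receptors, and for all tested genes (light bars), split by gene length at 100 kb and by TGGTGCT in the 3′ UTR (site). Guidance genes were called lower at 40.6% over 100 kb and 31.4% at 100 kb or less, against 19.7% and 8.15% of all genes.

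Other genes of the pathway, co-receptors, adaptors and effectors inside the axon, leaned the same way. Of 106 such genes 101 were tested, 30 were lower (29.7%) and 8 were higher (7.92%), with a median log2 difference of -0.07. Over all tested genes 10.0% were lower and 9.02% were higher, with a median of -0.01, so the share called higher was near that of all genes. The count of called pathway genes was 25 without miR29WT replicate 2 and 25 without miR29WT replicate 3, against 38 with all libraries. Those called lower with the smallest p were Rnd1, Sdcbp, Chl1 and L1cam. Rnd1, a small GTPase that binds plexins, was at 225 to 256 in miR29Nestin and at 433 to 491 in miR29WT (log2 difference -0.64, limma adjusted p = 1.06e-04). Sdcbp, the scaffold syntenin that binds ephrin-B tails, was at 1217 to 1274 against 1650 to 1714 (-0.40, limma adjusted p = 3.55e-04). Both groups of libraries were narrow in these genes and did not overlap.

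Chl1, an adhesion molecule that acts with Nrp1 in Sema3a signalling, was at 574 to 672 against 975 to 1258 (log2 difference -0.65, limma adjusted p = 4.11e-04). L1cam, its relative with the same partner, was at 1533 to 1626 against 1964 to 2134 (-0.34, limma adjusted p = 0.00133). The 4 called higher with the smallest p were Dpysl4, Rap1gap, Trim9 and Elmo1. Dpysl4, of the collapsin response mediator family downstream of semaphorins, was at 1033 to 1146 against 639 to 694 (0.59, limma adjusted p = 9.02e-05). Rap1gap, which switches off Rap GTPases, was at 3639 to 3705 against 2833 to 3132 (0.26, limma adjusted p = 0.00511). Trim9, a ubiquitin ligase that binds Dcc, was at 5121 to 5674 against 4033 to 4667 (0.28, limma adjusted p = 0.0112). Elmo1, a partner of Dock proteins in Rac activation, was at 2443 to 2874 against 2114 to 2217 (0.25, limma adjusted p = 0.0167), and its call was lost without miR29WT replicate 1 or replicate 2 (adjusted p = 0.0524 and 0.0563 in limma).

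In Dnmt3a-mi5 cortex, where miR-29 is kept and only its sites in Dnmt3a are changed, 0 of 60 tested guidance genes were called by limma, against 0.122% of all 10670 tested genes (13 genes: 3 higher, 0.0281%, and 10 lower, 0.0937%). The median log2 difference of the 60 was -0.03, with single genes from -0.31 to 0.22 and standard errors from 0.04 to 0.15. The 8 libraries were deposited with a 2-level additive effect already removed, and the fit holds a term for it. At an unadjusted p under 0.05 stood 5 guidance genes (3 lower and 2 higher), against 14.7% of all tested genes. The 11 not tested were Efna1, Efna2, Efna4, Epha1, Epha2, Epha3, Ephb4, Ntn5, Robo4, Sema3b and Sema3g.

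These 5 genes were named after their values were seen. Unc5d was at 655, 689, 749 and 679 in Dnmt3a-mi5 and at 864, 1065, 825 and 998 in Dnmt3a-WT. It was the only tested guidance gene lower in every mutant library than in any wild-type library, against 6.67% of all tested genes, and its mean was 1.35-fold lower (log2 difference -0.31, SE 0.06, limma adjusted p = 0.114). Without the term for the removed effect its adjusted p was 0.0495 in limma, in a fit that called 0.797% of all tested genes. An exact 2-sided permutation test within the sets gave p = 0.0556, the smallest that their 36 assignments allow, and one over all 70 assignments, which ignores the sets, gave p = 0.0286, neither adjusted for the number of genes.

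Robo2 was at 1272, 1311, 1466 and 1264 against 1515, 1572, 1393 and 1540, with 1 library of each group inside the range of the other (log2 difference -0.15, SE 0.05, limma adjusted p = 0.231, exact permutation p = 0.111 within the sets and 0.0571 over all assignments). Efna5 was at 379, 429, 396 and 361 against 616, 377, 544 and 489 (log2 difference -0.21, SE 0.08, limma adjusted p = 0.268, exact permutation p = 0.167 within the sets and 0.114 over all assignments). The second Dnmt3a-WT library overlapped the mutants for Efna5, and without it the limma adjusted p was 0.0183. Epha10 was higher in every mutant library (610, 574, 586 and 603 against 507, 571, 543 and 528, limma adjusted p = 0.272), the only tested guidance gene to be so, against 5.33% of all tested genes. Sema4b, a ligand of Plxnb1, overlapped between the groups (219, 213, 218 and 229 against 167, 222, 182 and 190, limma adjusted p = 0.33).

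**Figure D5:**
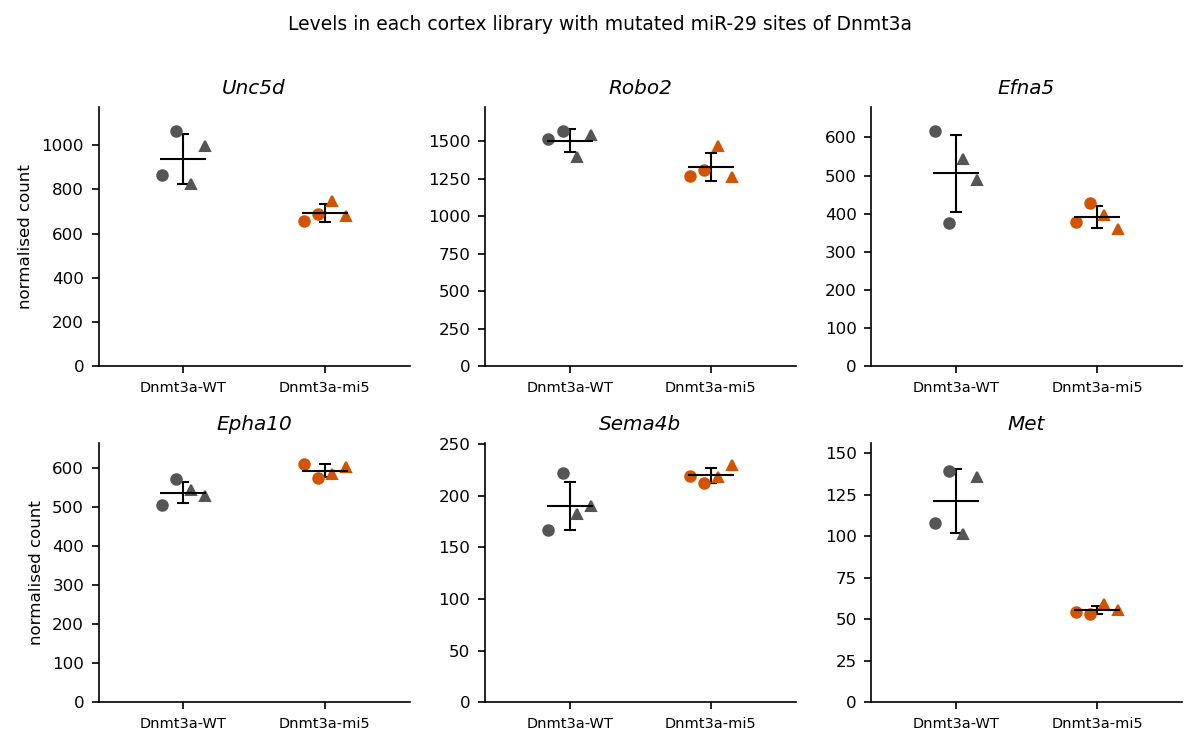
Normalised count per library (4 of Dnmt3a-mi5 and 4 of Dnmt3a-WT) for the 5 guidance genes at an unadjusted p under 0.05 and for Met, with bars for the mean and SD, circles for the first and triangles for the second of the 2 sets of libraries. For Unc5d and Met every mutant library lies lower, and for Epha10 every one lies higher.

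The genes that moved most in miR29Nestin did not separate the groups here. Slit2 was at 387, 533, 439 and 570 in Dnmt3a-mi5 and at 562, 622, 540 and 541 in Dnmt3a-WT (log2 difference -0.15, SE 0.07, limma adjusted p = 0.353). Plxna2 was at 2098, 2057, 2013 and 1952 against 1968, 1938, 1915 and 2186 (0.02, SE 0.04, limma adjusted p = 0.897). Both groups overlapped in each gene. Robo3 had a log2 difference of -0.12 (SE 0.07), Epha4 of -0.19 (SE 0.09), Ephb2 of -0.04 (SE 0.06) and Sema3f of -0.04 (SE 0.04), none of them called by limma.

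The genes with the highest level per kb of their families were also spread over both groups. Sema7a, again the highest of all guidance genes per kb (635 in Dnmt3a-WT), was at 2145, 2504, 2042 and 2128 in Dnmt3a-mi5 and at 2610, 1431, 2146 and 2185 in Dnmt3a-WT. Ephb6 was at 1483, 1785, 1482 and 1636 against 1864, 1128, 1478 and 1573. The second Dnmt3a-WT library was the lowest of its group for both genes. Efnb3 was at 1227, 1113, 1159 and 1144 against 1010, 1118, 1124 and 1035, and Unc5a at 1413, 1607, 1529 and 1719 against 1331, 1610, 1362 and 1358. None of these genes was called by limma (adjusted p from 0.361 to 0.815).

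The tables share no library, differ in age and were normalised apart, so the contrasts are set side by side. Their log2 scales start from unlike levels at a count of 0 (6.5861 and 7.6295). The sizes of log2 differences are therefore not compared between them. Of the 24 guidance genes called lower in miR29Nestin, all tested in the Dnmt3a table, 17 had a negative difference there (70.8%), with a median of -0.04. Of all 1161 genes called lower in miR29Nestin and tested in the Dnmt3a table, 819 did (70.5%). The guidance genes did not stand apart from the rest by this count. Efna5 had a positive difference of 0.41 in miR29Nestin and a negative one of -0.21 with the changed Dnmt3a sites, and Epha10 had -0.19 and 0.09. Unc5d was negative in both, at -0.41 and -0.31, with means 1.47-fold and 1.35-fold lower.

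Of the pathway genes outside the set, 98 were tested in the Dnmt3a table and 1 was called, Met, lower in the mutants (1.02%, against 0.0937% of all tested genes called lower). Met encodes the hepatocyte growth factor receptor, which associates with B plexins. It was at 54.3, 53.4, 59.3 and 55.4 in Dnmt3a-mi5 and at 108, 139, 101 and 135 in Dnmt3a-WT, a 2.18-fold lower mean with no overlap (log2 difference -0.34, SE 0.04, limma adjusted p = 0.0262). The call was lost when any of the 4 Dnmt3a-mi5 libraries was left out (adjusted p from 0.0743 to 0.133 in limma). Met lay just under the filter in the miR29 table, at 14.0, 8.02 and 5.44 in miR29Nestin and at 99.8, 111 and 121 in miR29WT. That is a 12.1-fold lower mean (log2 difference -1.05, limma adjusted p = 1.62e-06 in the fit with no filter), given after the value was seen.

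In the Dnmt3a table the groups overlapped in the sums of 10 marker lists, while 2 sums were lower in every Dnmt3a-mi5 library and 1 was higher. Summed excitatory markers were at 59380 to 64840 in Dnmt3a-mi5 and at 65330 to 69590 in Dnmt3a-WT, with 0 of 10 genes called by limma and 3 at an unadjusted p under 0.05. Summed microglial markers were lower (3266 to 3657 against 3735 to 3921), with 1 of 6 tested called, and summed mural markers were higher (1742 to 1953 against 1602 to 1705), with 0 of 4 called and 2 at an unadjusted p under 0.05. Choroid plexus markers ranged from 329 to 14010 in Dnmt3a-mi5 and from 128 to 11910 in Dnmt3a-WT, and striatal markers from 6089 to 13330 and from 5320 to 9221. The part of these markers in the guidance values was not tested.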

How the data were processed

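The authors deposited 1 table per contrast, with log2 values after the variance-stabilising transformation of DESeq2. Per the submitters' processing notes the tools were STAR, Salmon, cutadapt and DESeq2 and the builds mm9 and hg19, with no version or role for any. Coordinates here are from GENCODE M21 (GRCm38), matched by symbol: 23793 genes by symbol, 293 by an older name and 358 unmatched. Normalised counts were recovered by inverting the transformation from its level at a count of 0 (6.5861 and 7.6295 on the log2 scale). The miR29 filter lies at about 48.0 normalised counts and the Dnmt3a filter at about 80.1.

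Each table was fitted alone with limma 3.58.1 (R 4.3.3), with a mean-variance trend, and tested on simulated data. The Dnmt3a columns name their group but not single mice, so libraries are numbered by column. Gene means of libraries 1 and 2 of each group equal those of libraries 3 and 4 within 5.5e-09, so an additive effect was removed before deposit, and the fit has a term for these sets. In the miR29 table same-numbered libraries deviated together (correlations 0.335, 0.204 and 0.186), while libraries with unlike numbers gave -0.327 to 0.178. The main fit has no term for these numbers, so calls and p-values are unpaired unless the block is named. A fit with a block for the numbers was run as an alternative, and its value is given where it changes a call. Y-linked genes marked replicate 1 of miR29Nestin and replicates 1 and 3 of miR29WT as male. In the Dnmt3a table the Y-linked genes Kdm5d and Uty were at 57.6 and 35.3 in every library of the first set. In the second set Kdm5d ran from 53.3 to 64.8 and Uty from 25.6 to 45.2. The labels do not name the removed effect, and whether it was sex was not tested.

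Members and lists were chosen with earlier results of these data known. Values of every library are given for the 20 called members with the smallest p and for the member of each family with the highest level per length, and up to 4 pathway genes per direction are named by p. Alternatives were the filter, scaling, variance prior, count scale, block, sex term, set term and each library left out.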

Additional observations from a re-analysis of the deposited data

Results flagged for a closer look

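Of 120 groups of 4 libraries examined among tested guidance genes in the Dnmt3a table, 4 had a library whose gap to the nearest other was above the 95% critical value of Dixon's ratio for 4 values, where chance gives about 1 in 20. Ephb3 was at 410 in library 2 of Dnmt3a-mi5 and between 337 and 345 in the others, a gap of 0.877 of the range. Sema4c was at 187 in the same library and between 152 and 156 in the others (0.883). Sema6b was at 1704 in library 1 of Dnmt3a-mi5 and between 1789 and 1805 in the others (0.849). Unc5a was at 1610 in library 2 of Dnmt3a-WT and between 1331 and 1362 in the others (0.880). Groups of 3 were not examined in this way.

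Epha10, an Eph receptor with an inactive kinase, was lower in every miR29Nestin library (log2 difference -0.19) and higher in every Dnmt3a-mi5 library (0.09). Its call in miR29Nestin (limma adjusted p = 0.0372) was lost in 5 of 6 fits with a library left out and in 3 of 9 other settings. In Dnmt3a-mi5 it was not called (limma adjusted p = 0.272), and its nearest libraries were at 574 and, in Dnmt3a-WT, 571. The difference between the contrasts was not tested.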

How the results depend on the processing

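With each library left out in turn, the guidance genes called in miR29Nestin numbered 16 to 28, all genes 1399 to 2314 and pathway genes 25 to 37. Of the 27 called, 12 stayed called without each library (Efna2, Efna5, Epha4, Ephb1, Ephb2, Plxna2, Plxna3, Robo3, Sema3e, Sema3f, Slit2 and Unc5d) and 22 under every other setting run. In the Dnmt3a table these counts were 0 to 1, 1 to 81 and 0 to 1, the highest for all genes without Dnmt3a-WT library 2. With no term for the sets 85 genes were called (24 higher and 61 lower), 1 of them a guidance gene, and the stricter filter left 0 pathway genes. Over single genes under other settings, a called gene stayed called in 310 fits and lost the call in 8, and a gene not called gained one in 17 and did not in 130, with no called value changing sign. The cause was not tested.

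With the replicate block 32 guidance genes were called in miR29Nestin (4 higher and 28 lower), as were 49 pathway genes and 3037 genes in all. The block with a sex term, an alternative chosen after seeing the data, gave 28 guidance genes: it lost Epha10, Plxna1, Plxna4, Sema7a and Sema4c, gained Dcc, Efnb1, Epha5, Ntn4, Sema3a and Sema6a, and did not call Ntn5, Sema5b, Sema6b and Sema6c, which the block alone did. The permutation within sets was also chosen after seeing the data. No paired analysis was possible for the Dnmt3a table because its column names repeat within a group and map to no single mouse. Depth is unknown in that table, and below about 80.1 normalised counts no guidance gene was tested.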
